A study of Homo sapiens with 3 samples.

Results

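The MCM helicase and origin licensing genes are the 10 genes MCM2, MCM3, MCM4, MCM5, MCM6, MCM7, MCM10, CDT1, CDC6 and GMNN. They were taken by symbol, as every probe set that the platform annotation pairs with exactly 1 symbol, that symbol being a member. All 10 were found, with 21 probe sets, out of 19775 genes with 41097 such probe sets, and 0 probe sets pair a member with a further symbol. Expression was measured in MDA-MB-231, an established human breast cancer cell line that is mesenchymal-like and generally regarded as lacking oestrogen receptor alpha. The arrays are 1 from cells treated with the peptide ERα17p, whose sequence comes from that receptor, at 1 µM, 1 from cells treated with the hormone estradiol at 1 µM, and 1 from cells treated with the vehicle, 0.1% ethanol. All 3 cultures spent 4 h in medium with charcoal-stripped serum before 3 h of treatment, and the question is how each agent alters early expression. No label names the peptide's solvent, so a solvent effect and a peptide effect cannot be told apart in its difference from the ethanol array. An ethanol content is recorded for the vehicle culture only, so a match of solvent is not shown for estradiol either.

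Licensing is the step that makes a replication origin competent to fire, and it is limited to late mitosis and G1. The origin recognition complex recruits CDC6, and with CDT1 it loads the MCM2 to MCM7 ring, the motor of the replicative helicase, onto DNA. Geminin, the product of GMNN, binds CDT1 and blocks reloading in S and G2, while MCM10 acts later, when the loaded helicase is activated. Most of these genes are known E2F targets whose transcripts peak around the G1/S boundary, and MCM proteins are used as proliferation markers in breast tumours.

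The promoters of the members that lay lowest against vehicle are printed with that of GMNN, which did not reach 1.5-fold. They show where E2F-type sites lie. They come from RefSeq (GRCh38.p14), run from 250 bases before to 50 bases after a gene start, and read 5′ to 3′ on the gene's strand. Capitals mark each match to TTTCCCGC, TTTCGCGC, TTTGCCGC or TTTGGCGC on either strand. The windows are chr3:127598161-127598460 on the plus strand for MCM2, chr16:88803539-88803838 on the plus strand for CDT1, chr7:100101348-100101647 on the minus strand for MCM7 and chr6:24775163-24775462 on the plus strand for GMNN. For MCM7 and GMNN, which have 3 and 2 listed starts, the window with a match is shown, so a match there was fixed by the choice. MCM5 and MCM4 have no entry in the table.
MCM2: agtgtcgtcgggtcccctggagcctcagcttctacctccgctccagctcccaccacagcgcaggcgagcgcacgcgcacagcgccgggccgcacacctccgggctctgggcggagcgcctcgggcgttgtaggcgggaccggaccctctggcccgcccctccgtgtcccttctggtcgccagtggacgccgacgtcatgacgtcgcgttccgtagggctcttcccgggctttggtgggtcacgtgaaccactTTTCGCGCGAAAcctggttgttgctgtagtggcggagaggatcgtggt
CDT1: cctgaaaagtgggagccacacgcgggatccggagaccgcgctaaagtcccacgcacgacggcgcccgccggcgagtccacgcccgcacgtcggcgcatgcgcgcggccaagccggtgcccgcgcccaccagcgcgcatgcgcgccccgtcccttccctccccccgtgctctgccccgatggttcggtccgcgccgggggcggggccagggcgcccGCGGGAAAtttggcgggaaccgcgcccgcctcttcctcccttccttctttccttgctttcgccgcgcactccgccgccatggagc
MCM7: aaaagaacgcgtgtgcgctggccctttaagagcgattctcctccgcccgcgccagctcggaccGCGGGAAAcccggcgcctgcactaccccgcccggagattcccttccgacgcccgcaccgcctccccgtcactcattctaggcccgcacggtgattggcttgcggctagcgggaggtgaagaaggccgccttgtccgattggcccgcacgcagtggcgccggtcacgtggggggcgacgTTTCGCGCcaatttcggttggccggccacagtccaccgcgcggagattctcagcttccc
GMNN: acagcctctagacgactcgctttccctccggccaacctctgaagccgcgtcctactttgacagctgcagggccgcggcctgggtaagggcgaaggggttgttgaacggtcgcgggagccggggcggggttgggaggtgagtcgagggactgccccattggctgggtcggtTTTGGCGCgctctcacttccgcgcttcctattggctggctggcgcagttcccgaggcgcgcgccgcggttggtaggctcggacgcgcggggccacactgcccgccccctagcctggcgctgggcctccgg

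The MCM2 match is a palindrome read on both strands, with overlapping matches whose first bases lie 2 and 6 bases after the start. In CDT1 the match begins 35 bases before the start, in MCM7 the matches begin 187 and 9 bases before it, and in GMNN the match begins 80 bases before it. Of the 11 member windows 7 held such a match, against 3.31% of all 35116 promoter windows. They belong to 7 of the 8 members in the table, MCM10 being the exception. The pentamer CCAAT, a common promoter element, was in 8 of the 11 member windows and in 34.6% of all windows. The full palindromic oestrogen response element was in 0 of the 11 member windows and 0.057% of all windows, and TTTGAA, a cell cycle element, was in 0 of the 11 and 15.2%. Member windows had a median GC content of 67.7%, against 58.7% for all windows. In 1 of its 2 windows GMNN holds the E2F letters, as MCM2, CDT1 and 1 of 3 windows of MCM7 do.

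The values are RMA values, taken as log2, and each probe set had been centred on a level that no source describes. A value of 0 means that the array sat at that level. Absolute expression is therefore unknown, values of different genes cannot be ranked, and the identity of the cell line cannot be checked against its markers. With 1 array per group there is no replicate error and no test, and every difference below describes these arrays. A gene difference is the median over its probe sets, and a gene is called lower or higher at 1.5-fold, a log2 difference of 0.585. ERα17p and estradiol are set against the same vehicle array, so those comparisons are not independent.

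The vehicle array stood apart from the treated arrays in added control RNAs. The SD of all its values was 0.494, against 0.241 for ERα17p and 0.260 for estradiol. The 18 probe sets of the hybridisation spikes had a median difference from vehicle of -0.93 for ERα17p and -0.74 for estradiol, the same direction as the members, and the 27 of the labelling spikes had one of 2.04 and 2.03. The part of either in the members' differences was not tested. Genes that mark mesenchymal-like breast lines were at least 1.5-fold higher in 3 of 8 cases with ERα17p and in 2 of 8 with estradiol, where 9.56% and 10.6% of all genes were higher. Of these markers 0 were lower, where 8.82% and 8.42% of all genes were. SNAI2 and FN1 were higher in both comparisons. SNAI2 has 1 probe set, and those of FN1 ran from -1.44 to 1.12 for ERα17p and from -2.28 to 0.94 for estradiol. Markers of luminal epithelium had 0 of 9 and 1 of 9 higher and 1 of 9 lower under each agent, those of blood cells 1 of 4 higher under each, and those of fibroblasts and endothelium 0 of 6 and 1 of 6 higher, counts that differ from the all-gene shares by about 1 gene or less.

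Most licensing genes lay below vehicle on both treated arrays. The members were chosen with earlier results of these data known, so the all-gene shares below are background and no test of the set. With ERα17p 6 of the 10 were at least 1.5-fold lower (MCM2, MCM4, MCM5, MCM7, CDT1 and CDC6) and 0 higher, where 8.82% of all genes were lower and 9.56% higher. With estradiol 5 were lower (the same genes without MCM4) and 0 higher, where 8.42% of all genes were lower and 10.6% higher. At a 2-fold limit 3 and 4 members were lower, where 2.48% and 2.18% of all genes were. The 5 genes past 1.5-fold with estradiol were lower on both treated arrays, as were 6.03% of all genes. The median of the 10 differences was -0.68 for ERα17p and -0.57 for estradiol, beside a median of 0.00 over all genes in both comparisons. By sign, 8 of 10 lay below 0 with ERα17p and 10 of 10 with estradiol, against 49.3% and 49.2% of all genes. In a culture, fewer cells expressing a gene and less of its RNA per cell cannot be told apart. The size depends on the baseline: against the centring level in place of vehicle, the medians were -0.081 and -0.10 and 0 members were past 1.5-fold.

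**Figure D1:**
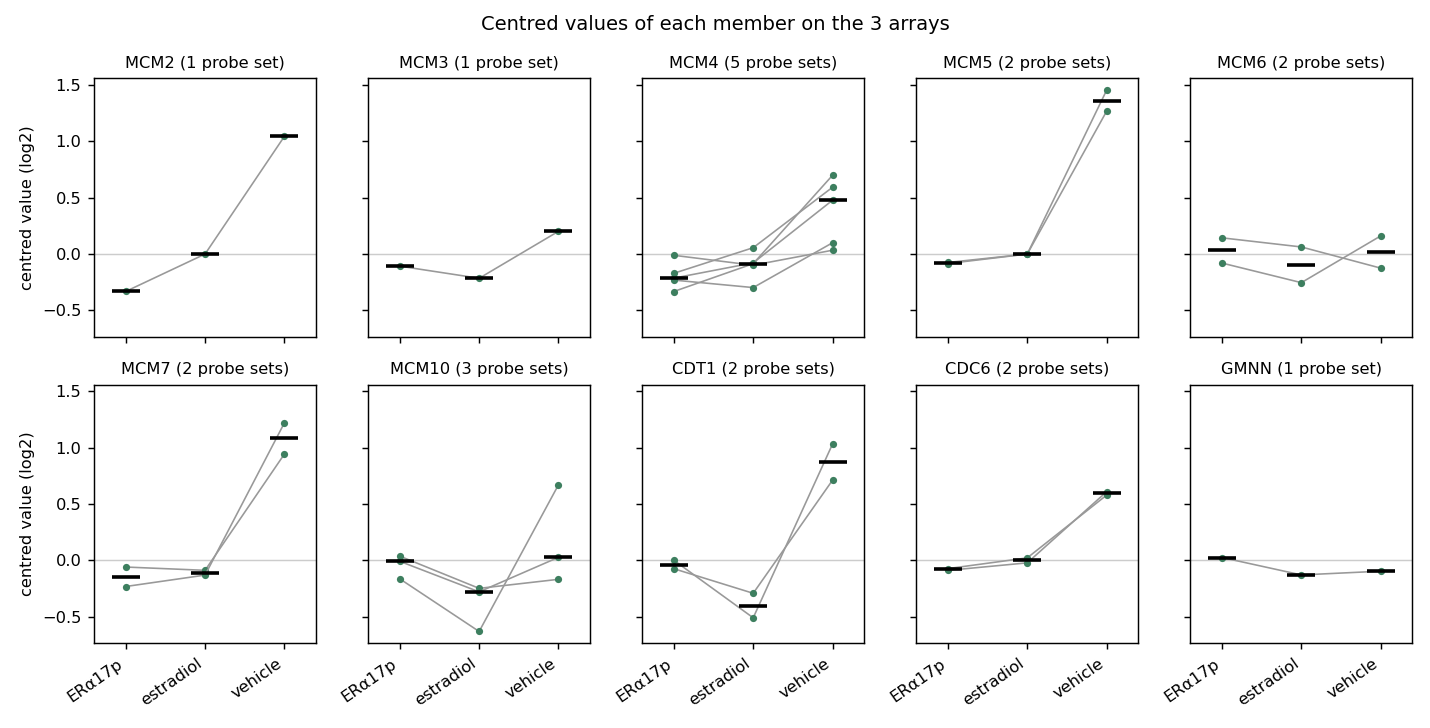
Centred log2 values (vertical axis) of each member on the ERα17p, estradiol and vehicle arrays; points joined by lines are probe sets and black bars are gene medians. Among the 21 probe sets, 18 are highest on the vehicle array, those of MCM5 reaching 1.27 and 1.45 there, while GMNN is nearly level.

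Among single probe sets, 18 of 21 had their highest value on the vehicle array, against 37.8% of all probe sets. The 21 probe sets ran from -0.33 to 0.14 on the ERα17p array (median -0.08), from -0.63 to 0.06 on the estradiol array (median -0.10) and from -0.17 to 1.45 on the vehicle array (median 0.59). The treated arrays thus sat close to the centring level and the vehicle array above it. Closeness to that level was general on the treated arrays. Their SD over all probe sets was 0.241 with ERα17p and 0.260 with estradiol, against 0.494 with vehicle. Of all genes, only 0.632% and 0.516% lay at least 1.5-fold below that level. At least 1.5-fold lower than vehicle were 13 probe sets with ERα17p and 10 with estradiol, where 11% and 11.4% of all probe sets were, and 0 were higher in either comparison, where 13.1% and 14.1% of all probe sets were.

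MCM5, a subunit at the gate through which the ring opens onto DNA in yeast, had the lowest deposited difference of the members in both comparisons, though not after quantile normalisation. Its probe set 201755_at had -0.08 with ERα17p, 0 with estradiol and 1.45 with vehicle, and 216237_s_at had -0.07, 0 and 1.27. In both probe sets the vehicle array was far above the others. The estradiol array was exactly at the centring level, as it was in 8.14% of all probe sets. The gene difference from vehicle was -1.44 for ERα17p, a ratio of 0.368, and -1.36 for estradiol, a ratio of 0.389. Only 0.566% and 0.693% of all genes had a lower difference.

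MCM2, which faces MCM5 across that gate and is phosphorylated by the CDC7 kinase, has 1 probe set. It had -0.33 with ERα17p, 0 with estradiol and 1.04 with vehicle. The difference was -1.38 for ERα17p (ratio 0.385) and -1.04 for estradiol (ratio 0.485). MCM2 was thus the member set furthest below estradiol on the ERα17p array, by a difference of -0.33, and it has no further probe set to set beside it.

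MCM7, an ATPase subunit that pairs with MCM4 in the ring, lay below vehicle in both of its probe sets. 208795_s_at had -0.06 with ERα17p, -0.09 with estradiol and 0.94 with vehicle, and 210983_s_at had -0.23, -0.13 and 1.22. The treated arrays were close to each other in both. The gene difference was -1.23 for ERα17p and -1.19 for estradiol, ratios of 0.427 and 0.438.

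MCM4, whose complex with MCM6 and MCM7 has helicase activity on its own in vitro, was less uniform over its 5 probe sets. Their differences ran from -1.03 to -0.05 for ERα17p and from -0.78 to -0.13 for estradiol, all below 0. The probe set 222037_at had -0.33 with ERα17p, -0.09 with estradiol and 0.70 with vehicle, while 242479_s_at had -0.01, -0.10 and 0.03. The gene difference was -0.69 for ERα17p and -0.54 for estradiol, on either side of the 1.5-fold limit, so the count of 6 against 5 turns on MCM4 alone. With the mean of the probe sets the ERα17p value was -0.57, short of the limit, and the count was 5 in both comparisons. The ERα17p array was only -0.14 from the estradiol array in this gene.

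MCM3 and MCM6 did not reach 1.5-fold on either array. MCM3, the subunit through which the loading machinery engages the ring in yeast, had -0.11 with ERα17p, -0.22 with estradiol and 0.20 with vehicle in its 1 probe set, differences of -0.31 and -0.42. MCM6, which binds CDT1 during loading, had probe sets that went opposite ways. 201930_at lay at -0.24 and -0.41 from vehicle and 238977_at at 0.27 and 0.19, for ERα17p and estradiol in that order. Its gene differences of 0.01 and -0.11 are therefore the middle of discordant probe sets. The subunits of the MCM2 to MCM7 ring, which act in equal numbers as proteins, thus ran from -1.44 to 0.01 with ERα17p and from -1.36 to -0.11 with estradiol, with 4 and 3 of 6 at least 1.5-fold lower.

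**Figure D2:**
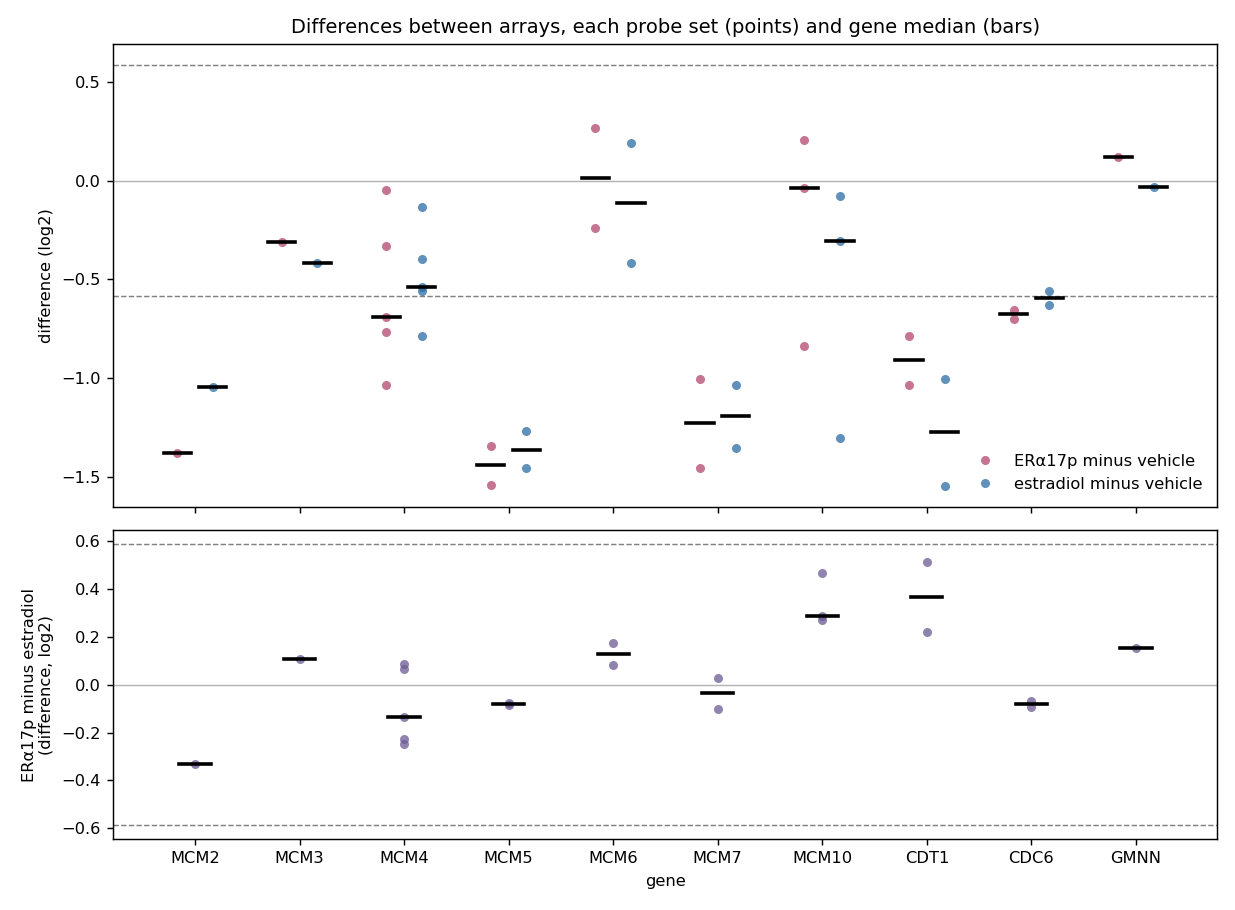
Log2 differences of each member: the upper panel shows ERα17p minus vehicle and estradiol minus vehicle, the lower panel ERα17p minus estradiol; points are probe sets, black bars gene medians and dashed lines the 1.5-fold limits. MCM2, MCM5, MCM7 and CDT1 lie below the lower limit in both comparisons with vehicle, and 0 probe sets pass a limit in the lower panel.

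The loading factors CDT1 and CDC6 lay below vehicle too. CDT1, which brings the ring to the origin, had 0 on the ERα17p array in 209832_s_at and -0.07 in 228868_x_at. On the estradiol array they had -0.51 and -0.29, and on the vehicle array 1.03 and 0.71. All 3 arrays were thus apart in CDT1, with estradiol lowest. The gene difference from vehicle was -0.91 for ERα17p (ratio 0.532) and -1.27 for estradiol (ratio 0.414).

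CDC6, an ATPase that binds the origin recognition complex and completes the loader, lay just past the limit. Its probe set 203967_at had -0.09 with ERα17p, -0.02 with estradiol and 0.61 with vehicle, and 203968_s_at had -0.07, 0.02 and 0.58. Its probe sets were nearly identical to each other on every array. The gene difference was -0.68 for ERα17p and -0.59 for estradiol, ratios of 0.626 and 0.662. After quantile normalisation of the 3 arrays it was -0.51 and -0.42, short of the limit.

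GMNN, the inhibitor of CDT1, was the member nearest to vehicle on the estradiol array. Its 1 probe set had 0.02 with ERα17p, -0.13 with estradiol and -0.10 with vehicle. The differences from vehicle were 0.12 and -0.03. CDT1 thus lay below vehicle on both treated arrays while its inhibitor lay within 0.12 of it.

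MCM10, which helps the loaded helicase to open DNA, had discordant probe sets. 222962_s_at had -0.16 with ERα17p, -0.63 with estradiol and 0.67 with vehicle, differences of -0.83 and -1.30. 223570_at had -0.01, -0.28 and 0.03, and 220651_s_at had 0.04, -0.25 and -0.17. Only the first of these passed 1.5-fold, and the gene differences were -0.04 for ERα17p and -0.31 for estradiol; with the mean of the probe sets the estradiol value was -0.56.

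**Figure D3:**
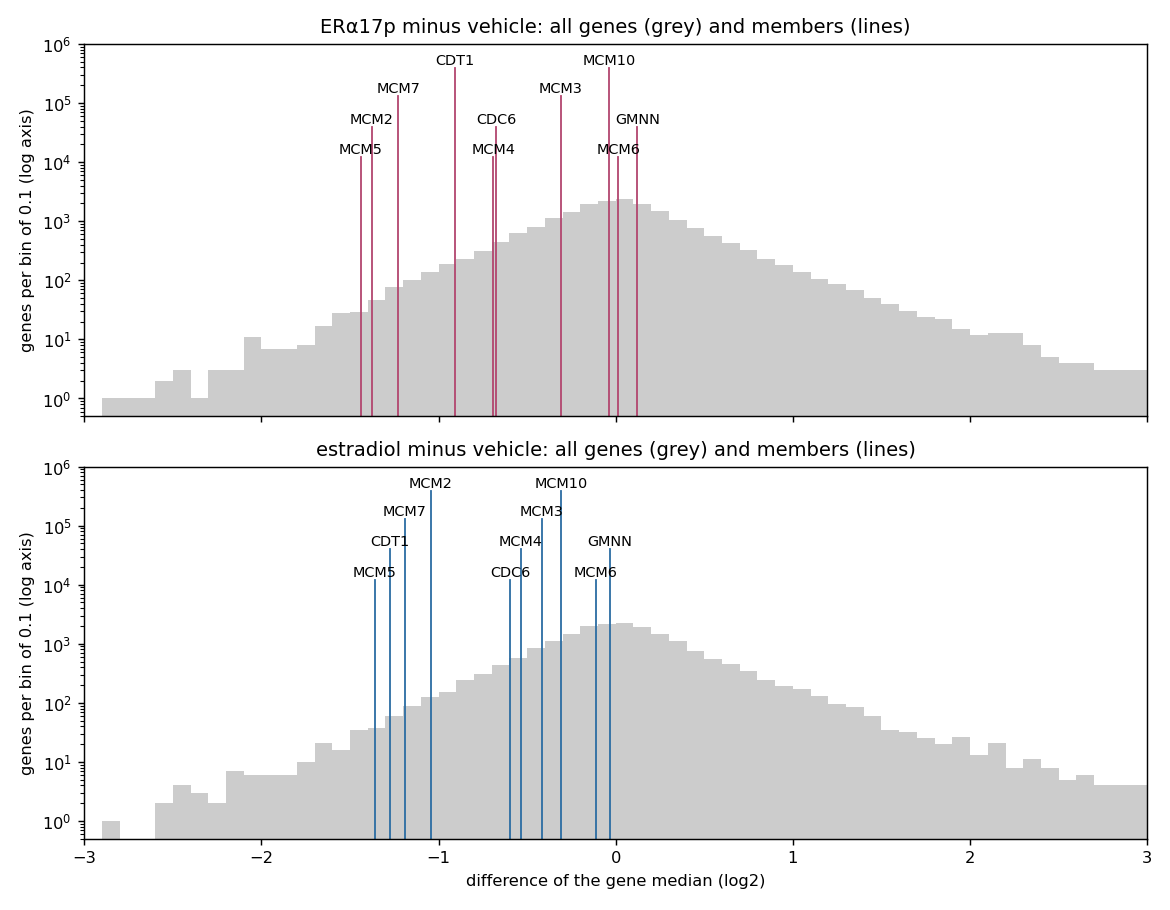
Number of genes per bin of 0.1 (vertical log axis) by log2 difference from vehicle (horizontal axis, shown from -3 to 3) for ERα17p above and estradiol below; coloured lines mark the 10 members and their heights only separate the names. MCM5 is the lowest member in both panels, at -1.44 and -1.36, and GMNN lies near the middle of all genes.

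ERα17p and estradiol were also set against each other, which leaves out the vehicle array. In this comparison 0 of 10 members and 0 of 21 probe sets passed 1.5-fold, where 2.04% of all genes were lower and 1.29% higher on the ERα17p array, and 3.27% and 3.61% of all probe sets. The median of the 10 was 0.04, with 5 members above 0 and 5 below (52.9% of all genes were below), and the gene differences ran from -0.33 to 0.36. CDT1 was highest relative to estradiol, at 0.36 with its probe sets at 0.51 and 0.22, and 93.8% of all genes had a lower difference. MCM10 followed at 0.29, with its 3 probe sets between 0.27 and 0.47, and 89.9% of all genes were lower. At the other end MCM2 lay at -0.33, with 8.84% of all genes lower. The typical size of a member's difference, a median of 0.131 without regard to sign, was below that of all genes, 0.144. No replicate shows whether differences of this size exceed the error of an array. Control probe sets at the 3′ and 5′ ends of ACTB differed by 0.31 on the ERα17p array and by -0.27 on the estradiol array. For GAPDH the same end differences were 0.15 and 0.06. Their part in the members' differences was not tested.

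Other genes of replication lay on both sides of vehicle. Over 6 lists with 67 measured genes, 11 were at least 1.5-fold lower than vehicle on both treated arrays and 9 were higher on both. Of all genes, 6.03% were lower and 7.49% higher on both, and the counts of each list are to be read against these shares. In the origin recognition complex, which marks origins, ORC1 lay at -1.26 with ERα17p and -1.28 with estradiol, while ORC3 lay at 0.63 and 0.79 and ORC4 at 0.68 and 0.82. The list median was 0.22 and 0.20, above that of all genes. ORC6, named after its values were seen, lay below vehicle like ORC1, at -0.57 and -0.83, the last past 1.5-fold. ORC1, ORC3 and ORC6 have 1 probe set each. ORC1 is the subunit whose level varies most over the human cell cycle.

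Genes that turn the loaded ring into an active helicase had 3 of 14 lower and 1 higher on both arrays, with list medians of -0.06 for ERα17p and -0.12 for estradiol. CDC45, a helicase cofactor, lay at -0.80 and -0.77, and RECQL4, a helicase of origin firing, at -0.77 and -0.87. GINS4, a subunit of the GINS cofactor, lay at -0.66 and -0.69, with probe sets that ranged from -2.17 to 0.52 for ERα17p. DONSON, which helps to bring GINS to the ring, lay at 0.94 and 0.99. CDC45 and DONSON have 1 probe set each. MCM8, MCM9 and MCMBP, which are relatives or partners of the ring, had 0 of 3 past 1.5-fold in either comparison, with medians of -0.04 and -0.12.

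Among the genes for removal of CDT1 and CDC6, 0 of 8 were lower and 2 higher on both arrays, with medians of -0.17 and -0.29. CUL4B, a scaffold of the ubiquitin ligase that destroys CDT1 in S phase, lay at 1.22 with ERα17p and 1.29 with estradiol, all 4 probe sets at 0.98 or above. CUL1, the scaffold used with SKP2, lay at 0.78 and 0.95. SKP2 itself lay at 0.20 with ERα17p and -0.05 with estradiol, and DTL, the CDT1 receptor of the CUL4 ligases, at -0.04 and -0.29.

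Fork enzymes had 5 of 23 lower and 2 higher on both arrays, with medians of -0.17 and -0.13. The lagging and leading strand polymerase genes POLD1 (-1.30 with ERα17p, -1.61 with estradiol), POLD2 (-1.11 and -1.13) and POLE (-1.10 and -1.39) were all at least 2-fold below vehicle, each in 1 probe set. The polymerase alpha subunits went opposite ways, with POLA2 at -0.72 and -0.96 and POLA1 at 1.11 and 0.98. LIG1, the ligase that joins Okazaki fragments, lay at -0.79 and -0.65 in 1 probe set. The sliding clamp PCNA, often used beside the MCM proteins as a proliferation marker, lay at -0.29 and -0.42, short of the limit.

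The E2F and pocket protein list had 2 of 13 lower and 2 higher on both arrays, with medians of -0.10 and -0.11. E2F1, an activator of licensing genes, lay at -0.98 with ERα17p and -0.96 with estradiol, and E2F3, a second activator, at -0.92 and -1.22. E2F5, a repressive member that works with the pocket proteins, lay at 0.94 and 1.03, and TFDP1, the partner subunit of the E2F factors, at 0.83 and 1.01 with probe sets on both sides of 0. In the direct comparison of ERα17p with estradiol, 1 of the 67 genes of these lists passed 1.5-fold. That gene was TICRR, a factor for helicase activation that was named after its value was seen, at 0.61.

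**Figure D4:**
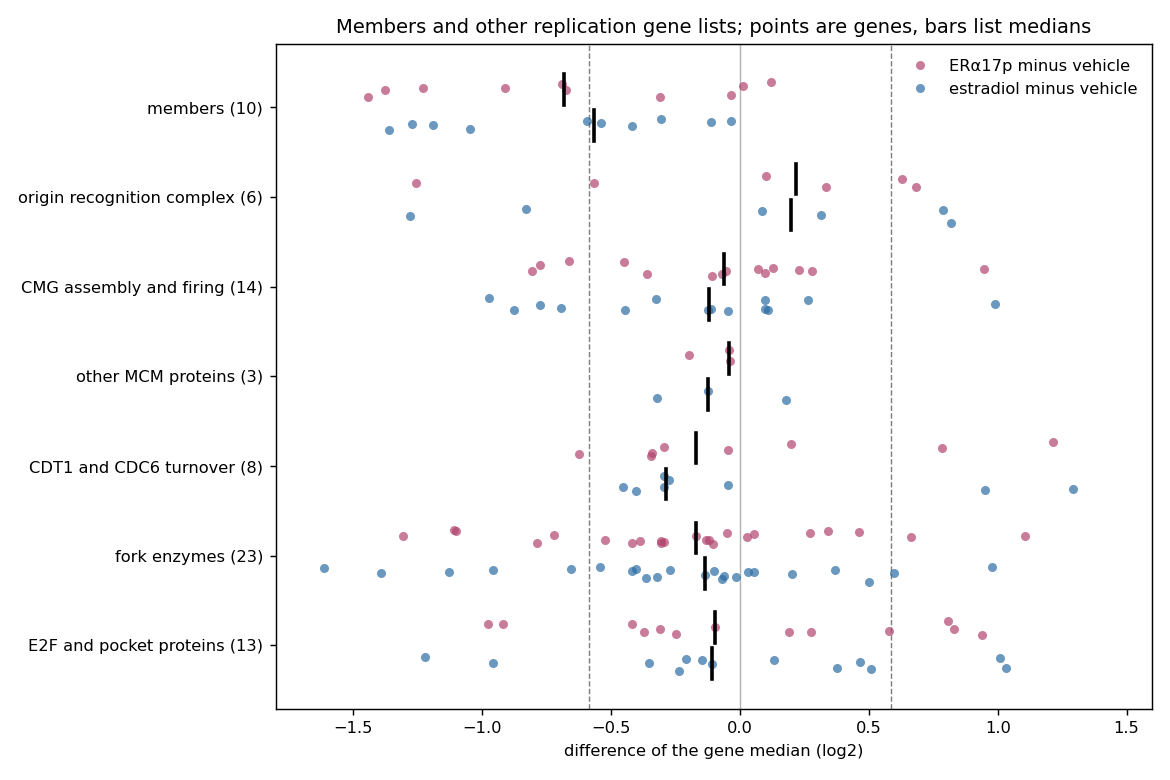
Log2 differences from vehicle (horizontal axis) of the 10 members and of 6 other replication lists, with the number of genes in brackets; points are genes, black bars list medians and dashed lines the 1.5-fold limits. The member medians of -0.68 and -0.57 lie further below 0 than those of the other lists, which run from -0.17 to 0.22 for ERα17p and from -0.29 to 0.20 for estradiol. Members and lists were chosen with earlier results of these data known.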

How the data were processed

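Per the submitters' processing notes the authors used RMA; no version is named. The deposited log2 values of 54675 probe sets had a median of 0 on each of the 3 arrays and exact zeros for 7.08% to 8.54% of probe sets, so they had been centred per probe set. The log base was taken from RMA. Symbols came from the platform annotation: 1801 probe sets with several symbols and 11777 with none were left out, and the 10 members' identifiers and symbols match RefSeq's gene table (GRCh38.p14, names only). Differences were taken per probe set in Python 3.11.15 with pandas 2.3.3, and a gene is the median of its probe sets. There was no filter on low values, which the centring prevents. The number of arrays limits the precision, and no test was run. The calling steps were tested on simulated log2 shifts of 1.5, added to shuffled differences between the treated arrays. Those shifts were larger than any member gene's difference, so calls near the 1.5-fold limit were not tested. Differences between the treated arrays had an SD over all genes of 0.254. It was 0.509 for ERα17p and 0.521 for estradiol against vehicle, so calls at that wider spread were not tested either. Alternatives were the mean of probe sets, removal of probe sets ending in _x_at or _s_at (which may match several transcripts), quantile normalisation, removal of the all-gene median, the centring level as baseline, a 2-fold limit and removal of the farthest member. Members and lists were chosen with earlier results of these data known. Named were all members with every probe set, and list genes past 1.5-fold against vehicle on both treated arrays, up to 6 per list; SKP2, DTL, PCNA, MCM8, MCM9, MCMBP, ORC6 and TICRR were added after values were seen. A planned protein comparison was not made.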

Additional observations from a re-analysis of the deposited data

How the results depend on the processing

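The members' medians kept their direction under every setting in both comparisons with vehicle. The baseline moved them most: against the centring level in place of vehicle they were -0.081 for ERα17p and -0.10 for estradiol, and every 1.5-fold call of a member was lost, the farthest values being -0.33 for MCM2 and -0.40 for CDT1. MCM2 and MCM5 were then exactly 0 with estradiol, which their deposited values of 0 fix in advance. Of all genes, 0.632% and 0.516% were 1.5-fold lower in that setting. Which arrays set that level is unknown. Without probe sets ending in _x_at or _s_at only 6 members were left, as MCM2, MCM7, CDT1 and GMNN have no others. Of the 6, 3 with ERα17p and 2 with estradiol were at least 1.5-fold lower, where 8.63% and 8.43% of all genes were. The calls of MCM2, MCM7 and CDT1 thus rest on such probe sets alone. At a 2-fold limit 3 members were lower with ERα17p (MCM2, MCM5 and MCM7) and 4 with estradiol. After quantile normalisation 5 and 4 members were 1.5-fold lower, where 7.53% and 6.27% of all genes were, and the medians were -0.56 and -0.41; MCM2 was then at -1.10 and -0.69, MCM5 at -0.96 and -0.87 and CDT1 at -0.63 and -1.07, so MCM2 was lowest with ERα17p and CDT1 with estradiol. The median of ERα17p minus estradiol was -0.04 without CDT1, the member farthest from 0. Single member differences were judged against 0.254, the SD of ERα17p minus estradiol over all genes. Against the centring level 12 moved by at least that much and 8 by less. After quantile normalisation 7 did and 23 did not, the 7 being differences from vehicle of MCM2, MCM5, MCM7 or CDT1. Other settings could move little by design: the all-gene medians were near 0, and a gene with 1 probe set has the same mean and median. No paired analysis was possible because each group has 1 array.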

Other observations

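By both differences from vehicle, over the 3 arrays, the genes nearest to the members' median pair of -0.68 and -0.57 among 10516 other genes with 2 or more probe sets were PNISR (-0.69 and -0.56), SPEN-AS1 (-0.70 and -0.56), JUND (-0.67 and -0.58), SMG6 (-0.66 and -0.57) and EHD2 (-0.67 and -0.55). The order is ERα17p first, and likeness is the Euclidean distance, which was 0.0199 or less. The probe sets of PNISR ranged from -1.23 to 0.50 for ERα17p, those of JUND, a subunit of the AP-1 transcription factor, from -0.88 to 0.43, and those of EHD2 from -0.75 to 0.44. Of these genes, SPEN-AS1 and SMG6 had all probe sets below 0 in both comparisons.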
